A study of Mus musculus with 2 samples.

Results

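The cytosolic ribosomal protein genes encode the protein parts of the ribosome outside the mitochondria. Members were chosen by symbol alone: Rpl or Rps followed by a number and an optional letter or paralog ending, and also Rplp0, Rplp1, Rplp2 and Rpsa. Pseudogenes, the Rps6k kinases and predicted genes were left out. The rule found 84 members among the 17608 genes of the deposited table, of which 32 belong to the small ribosomal subunit and 52 to the large one. A further 6 symbols that meet the rule, Rpl32l, Rpl6l, Rps12l1, Rps3a2, Rps3a3 and Rps4l, were not analysed here because no column carried them.

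All cells came from fetal livers of C57BL/6 mice at embryonic day E14.5. These cells are described as low in CD71, the transferrin receptor, and CD24, and surface protein was not examined here. They were profiled one by one with a 10x 3' version 3 kit, which reads transcript 3' ends; molecules are counted by a unique molecular identifier (UMI). A hashed library held 904 cells, 2 of them named unknown and the others from 4 isolations told apart by antibody barcodes: burst-forming unit-erythroid cells (BFU-E, an early red cell progenitor) and colony-forming unit-erythroid cells (CFU-E, a later one) sorted by FACS, named FACS BFU-E and FACS CFU-E, and the isolations PE-low and PE-high. A CITE-seq library of 2453 cells, also stained with barcoded antibodies against CD117 and CD71, held the names CS BFUE, CS CFUE and unknown. The labels mention a magnet method beside FACS, so the PE isolations were treated as magnet fractions. The sources used here do not give what PE and CS stand for or how cells received their names. The labels also describe growth for 10 days with 100 uM dexamethasone, a glucocorticoid, or with methanol. The sources used here do not say whether sequenced cells went through it, so no treatment was compared.

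A ribosome joins a small subunit, which reads the messenger RNA, and a large subunit, which forms the peptide bonds. The messenger RNAs of its proteins begin with a pyrimidine tract, the TOP motif, through which the kinase mTOR and the protein LARP1 control their translation together. Red cell progenitors need a high rate of protein synthesis. Loss of 1 copy of one of several of these genes causes Diamond-Blackfan anaemia, in which the supply of red cell progenitors fails.

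Each name is 1 pool and counts as 1 sample. No difference between pools therefore has a replicate check, and no p-value or standard error was computed. Intervals are 95% and exact, and they cover counting error only. A pool's level of a gene is its UMIs divided by all UMIs of the pool, on a scale of 1000000 (CPM). It is relative, so more ribosomal protein RNA and less of all other RNA cannot be told apart. FACS BFU-E, PE-low and CS BFUE are called the early pools and FACS CFU-E, PE-high and CS CFUE the late pools, and each early pool is compared with its late partner in a FACS, a PE and a CS pair. The 6 pools held 122 to 294 cells and 2968491 to 11003022 UMIs, with a median of 23449 to 38663.5 UMIs per cell. The summed level of 6 early erythroid markers was 701 to 792 CPM in the early pools and 154 to 241 CPM in the late pools. The summed level of 7 markers of the CFU-E stage was 354 to 578 CPM in the early pools and 1537 to 2073 CPM in the late pools. The markers thus matched the names, but this is no independent check. The early list holds Kit, the gene of CD117, and the CFU-E list holds Tfrc, the gene of CD71, and Cd24a. Cells may have been chosen or named by these antigens, and no sum was computed without them. Other cells were also present: 86 of the 233 FACS BFU-E cells, 61 of the 208 PE-low cells and 47 of the 122 CS BFUE cells held at least 5 UMIs of granulocyte or monocyte markers. The late pools held 0 such cells in FACS CFU-E, 20 in PE-high and 3 in CS CFUE. The granulocyte markers Elane and Ms4a3 were at 0 in FACS CFU-E and CS CFUE.

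The promoters of these genes were searched for a few short motifs. The RefSeq promoter table of GRCm38.p6 (250 bases before to 50 after each start) held 64 of the 84 members. The letters CGGAAG, the core read by ETS factors such as GABPA, stood on either strand in 43 of 64 member promoters (67.2%) and in 17.2% of 27025 promoters of all genes. The pyrimidine run CTTTCC, as found in TOP starts, stood on the sense strand in 23 member promoters (35.9%) against 14.0% of all. AANATGGCG, letters read by YY1, stood on either strand in 7 (10.9%) against 2.51% of all. The end of AANATGGCG can overlap the start of CGGAAG. The E-box CACGTG, on either strand, was found in 5 (7.81%) against 7.24% and TATAAA, on the sense strand, in 6 (9.38%) against 8.88%. Both shares lay near those of all promoters. A match is a description of the letters and no evidence of binding.

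The 6 promoters below are those of members at both ends of the early against late comparison, 3 higher in the early pools (Rpl39, Rps4x, Rps6) and 3 higher in the late pools (Rplp0, Rpl31, Rps27l). Rps6 is shown in place of Rpl28, whose FACS ratio was higher, and Rplp1 had no promoter entry. Each is 100 bases long, 5′ to 3′ on the gene's own strand, with 70 bases before and 30 after the RefSeq start. Capitals mark CGGAAG or its reverse complement. Rpl39 lies at chrX:37085193-37085292 (minus strand), Rps4x at chrX:102189362-102189461 (minus), Rps6 at chr4:86857338-86857437 (minus), Rplp0 at chr5:115559397-115559496 (plus), Rpl31 at chr1:39367781-39367880 (plus) and Rps27l at chr9:66946016-66946115 (plus).
Rpl39: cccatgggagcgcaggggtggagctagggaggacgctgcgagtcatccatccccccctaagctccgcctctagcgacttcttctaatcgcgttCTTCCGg
Rps4x: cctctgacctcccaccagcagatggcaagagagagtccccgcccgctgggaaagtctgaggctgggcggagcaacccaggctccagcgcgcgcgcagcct
Rps6: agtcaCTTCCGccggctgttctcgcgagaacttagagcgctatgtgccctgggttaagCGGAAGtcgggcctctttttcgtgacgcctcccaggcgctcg
Rplp0: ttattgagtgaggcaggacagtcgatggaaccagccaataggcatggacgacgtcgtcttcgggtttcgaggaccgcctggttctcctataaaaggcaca
Rpl31: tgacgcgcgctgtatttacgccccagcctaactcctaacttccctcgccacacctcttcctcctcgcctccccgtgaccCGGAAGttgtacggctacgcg
Rps27l: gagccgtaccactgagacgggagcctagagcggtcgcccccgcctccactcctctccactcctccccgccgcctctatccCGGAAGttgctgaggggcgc
The motif was present among the members higher early (Rpl39, Rps6) and among those higher late (Rpl31, Rps27l), and absent from these windows of Rps4x and Rplp0. The even pattern depends on the promoters shown. Of members not shown, it was also absent from the windows of Rpl28, Rps25 and Rps3, higher early, and of Rps2, higher late. The window of Rpl36al, higher late, held it. Over the members compared between the sorted pools, the median log2 ratio of FACS BFU-E to FACS CFU-E was 0.044 for the 40 with CGGAAG in the full 300 bases and 0.093 for the 19 without it.

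Ribosomal protein genes took between 22.3% and 31.9% of a pool's UMIs, and most of that range lay between the libraries. In the hashed library the 84 members took 23.4% of all UMIs in the FACS BFU-E pool and 22.9% in the PE-low pool, the early ones, and 22.7% and 22.3% in their late partners. In the CITE-seq library they took 31.9% of the UMIs of CS BFUE and 29.98% of CS CFUE. Within each way of isolation the early pool was the higher one, by less than the range between cells of 1 pool. The middle 50% of cells ranged from 22.0% to 24.8% in FACS BFU-E and from 21.8% to 23.7% in FACS CFU-E, so the cells of the pools overlapped broadly. Small subunit genes made up 43.5% to 44.2% of the members' UMIs in the early pools and 42.4% to 43.1% in the late pools.

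**Figure D1:**
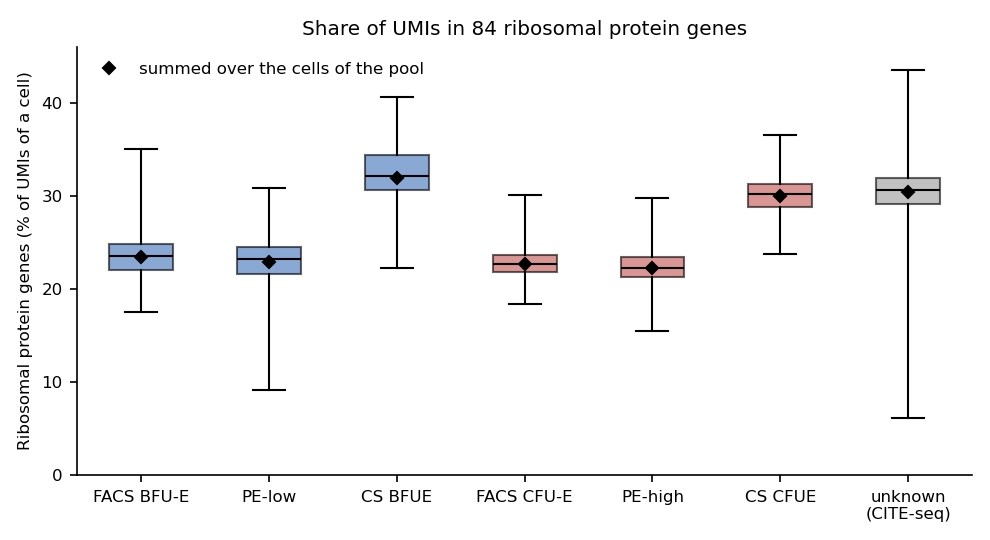
Percent of each cell's UMIs in the 84 ribosomal protein genes, by pool. Boxes show the quartiles over cells with the median as a line, whiskers reach the lowest and highest cell, and diamonds are the share summed over the pool. The 4 hashed pools lie between 22.3% and 23.4% and the named CITE-seq pools at 29.98% and 31.9%.

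Other measures moved with these shares. The cells with granulocyte or monocyte markers had a lower share than the remaining cells of the same early pool: 23.0% against 23.7% in FACS BFU-E, 22.3% against 23.1% in PE-low and 31.0% against 32.5% in CS BFUE. The early against late difference was larger without them in all 3 pairs. Depth moved with the share too. Within every named pool the share was lower in cells with more UMIs, with a Spearman rho over cells of -0.44 in CS BFUE and of -0.17 to -0.39 in the other 5 named pools. The share holds those same UMIs in its denominator. The cell with the lowest share among the named pools, at 9.13%, was in PE-low, and Gm42418, which overlaps a ribosomal RNA repeat, was its most abundant gene.

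Ribosomal protein genes took a slightly larger share of UMIs in the early pool of all 3 pairs. The summed level is such a share and does not give an amount of RNA per cell. The summed level was 234483 CPM in FACS BFU-E against 226594 CPM in FACS CFU-E, or 1.03-fold (1.03 to 1.04). It was 1.03 times higher in PE-low than in PE-high and 1.07 times higher in CS BFUE than in CS CFUE (1.06 to 1.07). Mitochondrial genes took 2.93% to 3.23% of UMIs in the early pools and 3.47% to 3.67% in the late ones. Without mitochondrial genes and Gm42418 in the total, the FACS log2 ratio of the summed level was 0.042, against 0.049 with them. CS BFUE was the shallowest pool, with a median of 23449 UMIs per cell against 37589 in CS CFUE. In cells of 25000 to 40000 UMIs only, a window chosen after seeing the data, the CS log2 ratio of the summed level was 0.036 against 0.092 over all cells.

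Single members moved little, but mostly the same way. Members were compared where either pool reached 50 CPM and either pool had a UMI in 10% or more of its cells. This left 79 of the 84 members for FACS and PE and 80 for CS, and all of these stood at 50 CPM or more in both pools of the pair. Between the sorted pools, 57 members had their higher level in the early pool and 22 in the late one, with a median log2 ratio of 0.064 against -0.043 over all 3476 genes compared. In PE-low against PE-high, 58 members were higher in PE-low and 21 in PE-high. Their median log2 ratio was 0.049, against -0.023 over all 3443 genes compared. In CS BFUE against CS CFUE, 64 were higher in CS BFUE and 16 in CS CFUE. Their median log2 ratio was 0.099, against -0.071 over all 3077 genes compared. The sign was the same in all 3 pairs for 66 members, 53 higher early and 13 higher late. Without the cells with granulocyte or monocyte markers these counts were 56 and 11, and with all ratios centred on the median of other genes they were 61 and 9. For all genes, signs were counted only between 2 pairs at a time. FACS and PE shared the sign for 74 of 79 members and 2854 of 3273 other genes. FACS and CS shared it for 67 of 79 and 2497 of 2918, and PE and CS for 70 of 79 and 2406 of 2908. A shared sign was thus common among all genes.

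Few members passed a fixed fold. Past 1.2-fold, 2 members were higher in FACS BFU-E (Rpl39 and Rps4x) and 1 in FACS CFU-E (Rplp0), whereas 19.7% of all genes compared were past 1.2-fold in the first direction and 25.2% in the second. No member was past it in PE-low against PE-high, where 16.2% of all genes were higher in PE-low and 17.6% in PE-high by that fold. In CS BFUE against CS CFUE, Rpl39, Rps4x, Rpl28 and Rps24 were past it upwards (18.2% of all genes) and Rpl36al downwards (28.8% of all genes). In the depth window only Rps4x and Rpl36al were past it in the CS pair. Without the cells with granulocyte or monocyte markers 6 were past it upwards and 0 downwards, and Rps24 (log2 ratio 0.24) and Rpl36al (-0.22) no longer were. Scaled by the median of other genes, Rpl36al was also under it (-0.24). Shares of all genes past 1.2-fold were not computed under these other settings. At 1.5-fold no member was past the threshold in any of these 3 pairs, against 18.7%, 12.8% and 19.5% of all genes in either direction. The spread of the members was narrow: the SD of their log2 ratios was 0.115 for FACS, 0.0901 for PE and 0.133 for CS. For genes that are not members it was 0.921, 0.574 and 0.824. These genes were not matched to the members for level. They needed 50 CPM in only 1 pool of a pair, whereas all members compared had it in both.

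The 3 pairs ordered the members alike. Over the 79 members compared in each, the log2 ratios of FACS and PE correlated with Pearson's r = 0.94 and Spearman's rho = 0.91, those of FACS and CS with 0.87 and 0.79, and those of PE and CS with 0.88 and 0.81. FACS and PE pools were sequenced in 1 library, members are not independent of each other, and these values carry no test. For genes that are not members the same 3 values of r were 0.92, 0.96 and 0.93, so a like order was not particular to the ribosomal protein genes.

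**Figure D2:**
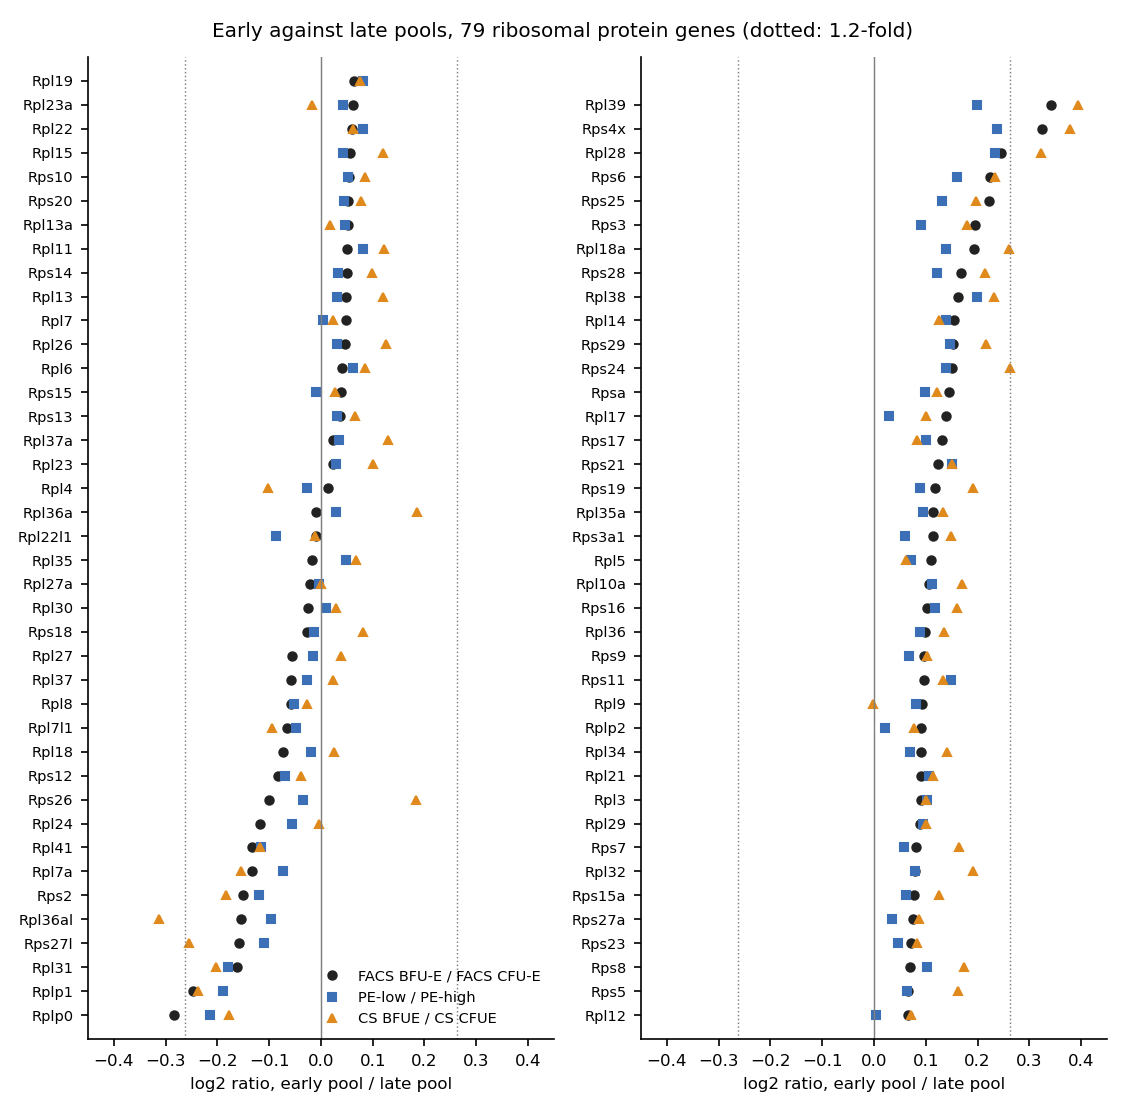
Log2 ratio of early to late pool for the 79 members compared in all 3 pairs, ordered by the FACS pair (circles), with the PE pair (squares) and the CS pair (triangles). The left panel holds the lower part of the order and the right panel the higher part. Dotted lines mark 1.2-fold; Rpl39 and Rps4x lie at the top and Rplp0 and Rplp1 at the bottom in the FACS pair.

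Rpl39, at chrX:37082518-37085222, encodes a small protein lining the exit tunnel of the large subunit. Its level was 1514 CPM (FACS BFU-E), 1421 CPM (PE-low) and 4996 CPM (CS BFUE). It was 1195 CPM in FACS CFU-E, 1238 CPM in PE-high and 3804 CPM in CS CFUE. Each early pool exceeded its late partner, by 1.27-fold (1.23 to 1.30), 1.15-fold (1.12 to 1.18) and 1.31-fold (1.29 to 1.34). The CS log2 ratio of Rpl39 was 0.39 over all cells and 0.26 in the depth window.

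Rps4x, at chrX:102184941-102189391, encodes the X-linked form of the small subunit protein S4. Its level was 4238, 3844 and 4496 CPM in FACS BFU-E, PE-low and CS BFUE and 3383, 3260 and 3460 CPM in FACS CFU-E, PE-high and CS CFUE. The 3 early pools all lay above the 3 late pools. The ratios of early to late were 1.25, 1.18 and 1.30. Of the 4 members on the X chromosome, Rpl36a had log2 ratios of -0.01, 0.03 and 0.19 in the 3 pairs, and Rpl10 was under 50 CPM in every pool. This look at the X chromosome was chosen after values were seen.

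Rpl28, Rps6, Rps25 and Rps3 completed the 6 highest ratios of the FACS pair. Rpl28, of the large subunit, stood at 4191, 4137 and 6684 CPM in the early pools FACS BFU-E, PE-low and CS BFUE and at 3535, 3521 and 5342 CPM in their late partners. Rps6, whose protein is the classic target of the S6 kinases, stood at 3543, 3396 and 3007 CPM early and 3035, 3038 and 2557 CPM late, in the same order. Both genes were higher in the early pool of each pair, FACS, PE and CS. Rps25, whose protein helps some messages start without a cap, had log2 ratios of 0.22, 0.13 and 0.20 in the FACS, PE and CS pairs. Rps3, which lines the messenger entry channel and also has a role in DNA repair, had log2 ratios of 0.19, 0.09 and 0.18. The smallest of these differences was that of Rps3 in the PE pair, at 1.06-fold.

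Of the stalk genes, Rplp0 and Rplp1 went the other way. Rplp0, Rplp1 and Rplp2 encode the acidic stalk of the large subunit, which recruits the elongation factors. Rplp0, at chr5:115559467-115563729, stood at 7214 CPM (FACS BFU-E), 7303 CPM (PE-low) and 6262 CPM (CS BFUE) early, and at 8776 CPM in FACS CFU-E, 8471 CPM in PE-high and 7085 CPM in CS CFUE. The late pool of each pair was higher, by 1.22-fold (1.202 to 1.231), 1.16-fold (1.15 to 1.17) and 1.13-fold (1.11 to 1.15). Without the cells with granulocyte or monocyte markers its FACS log2 ratio was -0.23 against -0.28 with them, which took it under 1.2-fold. Rplp1 stood at 5188, 5179 and 7639 CPM early and 6159, 5905 and 9004 CPM late, also higher in each late pool. For Rplp2 the log2 ratios of early to late were 0.09, 0.02 and 0.08, slightly above 0.

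The other members at the low end of the FACS pair were Rpl31, Rps27l, Rpl36al and Rps2. Rpl31, which lies by the tunnel exit, had log2 ratios of -0.16, -0.18 and -0.20 in the FACS, PE and CS pairs, from 951 and 1063 CPM in the FACS pools. Rps27l, a paralog of Rps27 and a known p53 target, had log2 ratios of -0.16, -0.11 and -0.25. Rpl36al, an autosomal copy of Rpl36a, had log2 ratios of -0.15, -0.10 and -0.31, from 1408 CPM in CS BFUE and 1750 CPM in CS CFUE. Rps2, of the messenger entry channel, had log2 ratios of -0.15, -0.12 and -0.18. These 4 genes, like Rplp0 and Rplp1, were higher in the late pool of each pair under every scaling and cell selection tried.

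**Figure D3:**
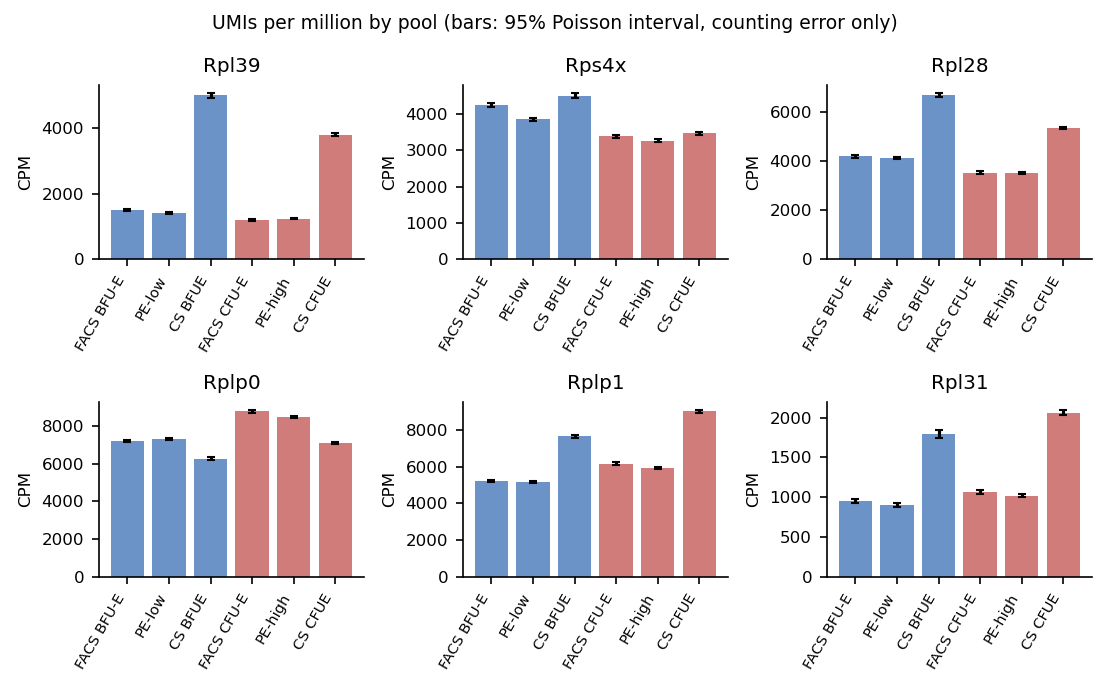
Level in CPM of 6 members in the 6 named pools (blue, early; red, late), with 95% Poisson intervals that cover counting error only. The upper row shows the 3 highest ratios of FACS BFU-E to FACS CFU-E (Rpl39, Rps4x, Rpl28) and the lower row the 3 lowest (Rplp0, Rplp1, Rpl31). Each early bar can be read against the late bar of the same isolation: in the FACS pair, Rpl39 stood at 1514 and 1195 CPM and Rplp0 at 7214 and 8776 CPM.

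Both subunits took part in the small excess of the early pools, and the small subunit held the larger part of it in each pair. Summed small subunit members stood at 102397 CPM in FACS BFU-E and 96023 CPM in FACS CFU-E, and large subunit members at 132086 and 130571 CPM. In the PE pair these levels were 99672.5 and 94882.6 CPM, and 129369 and 127637 CPM. In the CS pair they were 141255 and 129302 CPM, and 178230 and 170459 CPM. In the FACS pair 26 of 31 small subunit members were higher early, with a median log2 ratio of 0.081, and 31 of 48 large subunit members, with a median of 0.050. The counts were 25 of 31 and 33 of 48 in the PE pair and 29 of 32 and 35 of 48 in the CS pair. The difference between the subunits was not tested. Among members with further functions, Rpsa, whose protein is also known as the laminin receptor, had FACS, PE and CS log2 ratios of 0.14, 0.10 and 0.12. Rps27a, which is made as a fusion with ubiquitin, had log2 ratios of 0.08, 0.03 and 0.09.

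The Diamond-Blackfan anaemia genes had medians near those of all members. Of 17 listed, 12 were higher early in the FACS pair, 13 in the PE pair and 16 in the CS pair, with median log2 ratios of 0.056, 0.058 and 0.12. Rps19, the gene most often mutated in that disease, stood at 3702 CPM (FACS BFU-E), 3593 CPM (PE-low) and 5546 CPM (CS BFUE), and at 3410, 3379 and 4859 CPM in their late partners. It was higher in the early pool of each pair, with log2 ratios of 0.12, 0.09 and 0.19. Rpl5 and Rpl11, which bind MDM2 together with the 5S RNA, had log2 ratios of 0.11 and 0.05 in the FACS pair. Rps24 reached 0.26 in the CS pair but 0.10 in the depth window, and Rpl31 was the only one of the 17 that was higher late in all 3 pairs. Rps26 was lower in FACS BFU-E than in FACS CFU-E (1204 and 1290 CPM) and higher in CS BFUE than in CS CFUE (4098 and 3606 CPM). The remaining 11 had FACS log2 ratios between -0.07 and 0.17.

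FACS and the PE isolation gave levels close to each other, with most members slightly lower in the PE pool. In PE-low against FACS BFU-E the summed ratio was 0.977 (0.975 to 0.979), and in PE-high against FACS CFU-E it was 0.982 (0.980 to 0.984). Their log2 values were -0.034 and -0.026, against 0.049 and 0.042 in the FACS and PE early against late pairs. In PE-low against FACS BFU-E, 20 members were higher and 59 lower, with a median log2 ratio of -0.030 against 0.019 over all genes compared. In PE-high against FACS CFU-E, 15 were higher and 64 lower, with a median of -0.022 against -0.0027 over all genes compared. No member was past 1.2-fold in either comparison of isolations, against 6.89% and 5.47% of all genes, and 77 and 79 of 79 members lay within 10%. The lowest log2 ratios of PE-low to FACS BFU-E were those of Rps3 (-0.15), Rps4x (-0.14), Rps25 (-0.12) and Rpl23a (-0.11), and the highest those of Rps26 (0.11), Rpl21 (0.08), Rps27l (0.06) and Rpl9 (0.05). Every one of these was under 1.2-fold. The pools of these comparisons also enter the early against late pairs.

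The libraries differed far more than the stages, and gene by gene. CS BFUE exceeded FACS BFU-E 1.36-fold in summed level and CS CFUE exceeded FACS CFU-E 1.32-fold. This comparison was chosen after values were seen, and the library cannot be told apart from the way the cells were isolated and named. The median of all genes compared was -0.26 and -0.23 on the log2 scale in the 2 comparisons, against 0.44 and 0.43 for the 80 members compared. Past 1.5-fold, 29 members were higher in CS BFUE and 2 in FACS BFU-E, where 5.05% and 12.9% of all genes were. In CS CFUE against FACS CFU-E 29 were higher and 1 lower, where 4.51% and 6.76% of all genes were. Rps27, among those higher, was under 50 CPM in the hashed pools and was compared only because of its higher level in the CITE-seq pools, so its direction follows from the filter. Without it 28 members were higher past 1.5-fold in each comparison.

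The same genes stood at the ends both times. Past 2-fold upwards (2.11% and 1.81% of all genes), 15 members were shared: Rpl21, Rpl35, Rpl35a, Rpl36, Rpl37, Rpl37a, Rpl38, Rpl39, Rpl41, Rplp2, Rps21, Rps26, Rps27, Rps28 and Rps29. Rps29, which encodes a zinc-binding protein of the small subunit head, stood at 910 CPM in FACS BFU-E and 819 CPM in FACS CFU-E against 3979 and 3427 CPM in CS BFUE and CS CFUE, a ratio of 4.37 and 4.19. Rps28 stood at 853 and 759 CPM against 3473 and 2992 CPM. Rpl38 stood at 760 and 678 CPM against 2873 and 2445 CPM. The CITE-seq pools were thus far higher for all 3. By contrast, 12 members were lower in both CITE-seq pools, among them Rpl5 with ratios of 0.666 and 0.688, Rpl4 with 0.712 and 0.772 and Rpl3 with 0.777 and 0.771. Over the 80 members the log2 ratios of the 2 comparisons correlated with r = 0.996 and rho = 0.991, across genes and with both CITE-seq pools from 1 library. Without Rps27 they were 0.995 and 0.990 over 79 members, of which 14 were past 2-fold in both.

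**Figure D4:**
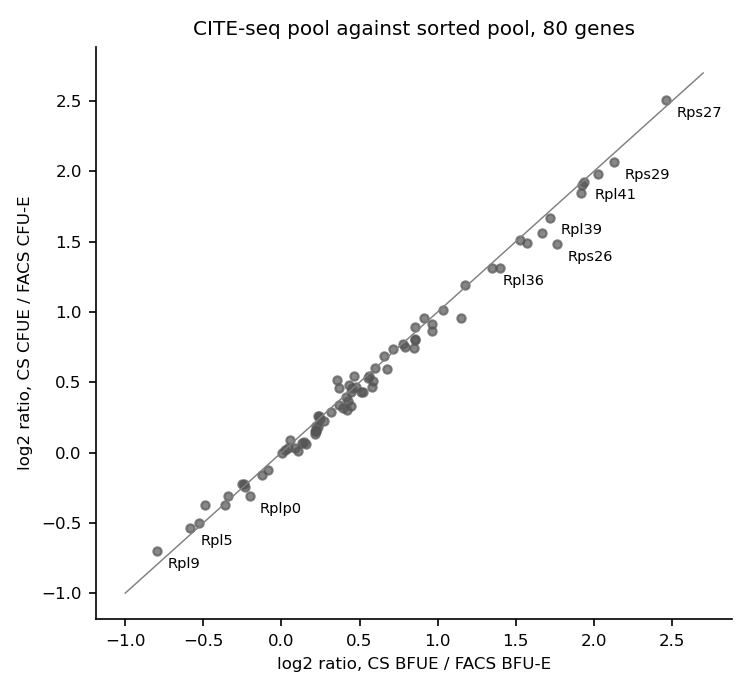
Log2 ratio of CS CFUE to FACS CFU-E against that of CS BFUE to FACS BFU-E for 80 members, 1 point per gene, with the line of equality. Points follow the line from Rpl9 at the lower left (-0.80 and -0.70) to Rps27 at the upper right (2.46 and 2.51).

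Other values moved with the library. Gm42418 stood at 4643 to 6545 CPM in the 4 hashed pools and at 2558 and 1506 CPM in CS BFUE and CS CFUE. Hepatocyte markers summed to 1.76 to 2.85 CPM in the hashed pools and to 26.3 and 120.5 CPM in the CITE-seq pools. Their part in the difference between libraries was not tested. In cells of 25000 to 40000 UMIs only, the summed log2 ratio was 0.41 in both comparisons, against 0.45 and 0.40 over all cells.

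The paralogs' shares of their pairs differed between stages and between libraries. Rpl22l1, whose product can stand in for Rpl22, made up 38.9% of the UMIs of the Rpl22 pair (FACS BFU-E), 37.6% (PE-low) and 36.0% (CS BFUE) early, and 40.0%, 40.4% and 37.2% in the late pools FACS CFU-E, PE-high and CS CFUE. Rpl36al made up 70.9%, 72.0% and 58.5% of its pair early and 73.0%, 73.7% and 66.6% late. In both pairs the paralog's share was higher in each late pool. Without the cells with granulocyte or monocyte markers, Rpl22l1 made up 37.3% of its pair in FACS BFU-E and 33.7% in CS BFUE, and Rpl36al 72.4% and 60.4%. Rpl7l1 made up 4.49% to 5.87% of the Rpl7 pair over the 6 pools. Rps27l made up 95.6% to 96.4% of its pair in the hashed pools and 83.5% and 86.5% in the CITE-seq pools. Counts of Rps27, Rpl10, Rpl9 and Rpl36a are uncertain, since the table also holds near-identical copies of them (Rps27rt, Rpl10-ps3, Rpl9-ps6, Rpl9-ps1 and Rpl36a-ps1) between which reads can be split. Rps27 itself stood at 31.0 to 34.0 CPM in the hashed pools and at 187 and 176 CPM in CS BFUE and CS CFUE, and it passed the level filter only through the CITE-seq pools.

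Rpl3l, Rpl10, Rpl10l and Rpl39l were under 50 CPM in all 6 pools. Rpl3l, known from heart and skeletal muscle, had 0 to 2 UMIs per pool, and Rpl10l, known from the testis, had 0 to 13. The limit that a count of 0 allows, 3 UMIs, was 0.407 CPM in FACS BFU-E. These counts did not allow a comparison between pools.

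Rpl39l, a copy of Rpl39 known from the male germ line, was concentrated in few cells. It had 501 UMIs in all, and 3287 of 3357 cells had 0. Only 21 cells had 1 or 2 UMIs, while 49 cells (1.46%, 1.08% to 1.93%) had 3 or more, up to 20, and these 49 held 94.4% of its UMIs. The cells with 3 or more numbered 2 for FACS BFU-E and CS CFUE each, 1 each for PE-low, CS BFUE and FACS CFU-E, and 33 among the unknown cells. PE-high held 9 such cells of 294 (3.06%, 1.41% to 5.73%), an interval that overlaps that of FACS CFU-E (0.0152% to 3.29%). The level of Rpl39l was 10.8 CPM in PE-high and 1.35 to 2.87 CPM in the other 5 pools. This distribution was looked at after values were seen.

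**Figure D5:**
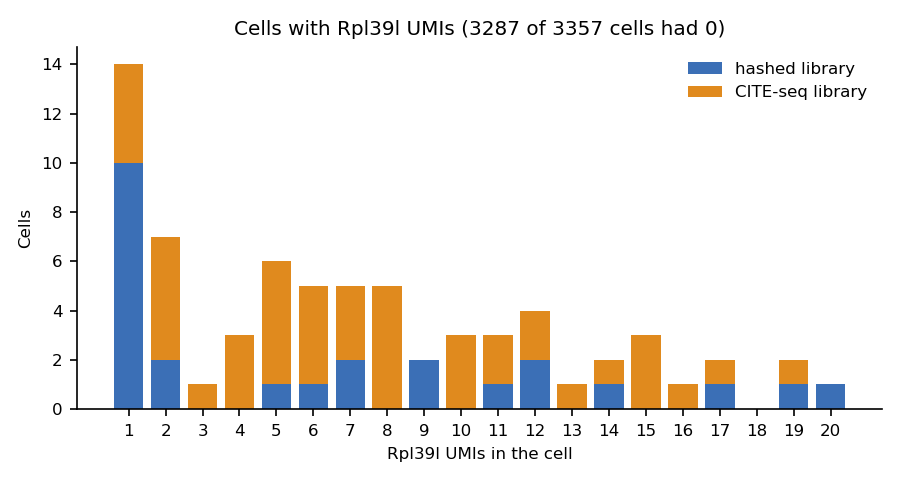
Number of cells by their count of Rpl39l UMIs (1 to 20), stacked by library; the 3287 cells at 0 are not drawn. There are 14 cells with 1 UMI, 7 with 2, 1 with 3 and further cells up to 19 in the CITE-seq library and 20 in the hashed one.

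The ribosomal protein share of cells rich in Rpl39l was slightly lower than that of cells with none in both libraries, a difference that was not tested. In the hashed library, 13 such cells had a median share of 21.9% against 22.9% in the 879 cells with 0. Of these 13 cells 9 were PE-high cells, as were 283 of the 879, and the median share of PE-high cells was 22.3%. In the CITE-seq library, 36 such cells had 30.5% against 30.7% in 2408 cells. Of these 36 cells 33 were named unknown, as were 2094 of the 2408. Rpl39 stood at 1294 against 1336 CPM in the hashed library and at 4080 against 3966 CPM in the CITE-seq library, so the main gene was present where its copy was high. Of the 49 cells, 5 had granulocyte or monocyte markers, among them all 4 of the early pools. The share of cells with any Rpl39l UMI was 3.74% in PE-high and 3.40% after thinning each cell to 10000 UMIs, against 1.80% and 1.198% in FACS CFU-E. No cell type known to lack the gene was fixed as a background for this share.

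Genes that work with ribosomal proteins moved unevenly. Of 46 ribosome biogenesis genes, 41 were compared in the FACS pair, and past 1.2-fold 4 were higher early and 7 late, shares near or under those of all genes (19.7% and 25.2%). Noc4l and Bysl, both of small subunit assembly, had log2 ratios of -0.47 and -0.46, the helicase Ddx21 -0.47 and Tcof1, a partner of RNA polymerase I, 0.45. The level of Bysl was 72.0 CPM in FACS BFU-E against 99.2 CPM in FACS CFU-E, and 42.8 CPM in CS BFUE against 68.1 CPM in CS CFUE. In the CS pair Bysl passed the level filter only through CS CFUE, so its direction there follows from the filter. In the CS pair 0 of 41 were higher early past 1.2-fold and 10 were higher late, against 18.2% and 28.8% of all genes. In the PE pair 2 of 42 were past it in each direction, against 16.2% of all genes higher early and 17.6% higher late. These counts changed with the cells and the scaling chosen. No share of all genes was computed under the other choices, so the counts below have no background. Without the cells with granulocyte or monocyte markers the counts higher early and late were 4 and 4 (FACS), 9 and 0 (PE) and 2 and 2 (CS). The median log2 ratio in the FACS pair was then 0.082, against -0.039 with them. In the depth window the CS pair had 7 higher early and 3 late, with a median log2 ratio of 0.044 against -0.11 over all cells. Scaled by the median of other genes, the FACS pair had 4 in each direction and a median of 0.010.

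Among 14 elongation factors and other TOP messages, none was past 1.2-fold in the FACS pair, and 7 were higher early. Of all genes, 19.7% were higher early and 25.2% higher late past that fold. Tpt1 (log2 ratio 0.24), Pabpc1 (0.23) and Eef1a1 (0.23) were higher in FACS BFU-E, and Eef1d (-0.23) was higher in FACS CFU-E. Of 6 ribosome rescue and release genes compared, 2 were higher late past 1.2-fold (25.2% of all genes): Abce1, which splits ribosomes after termination, at 172 and 228 CPM in FACS BFU-E and FACS CFU-E, and Pelo, which frees stalled ribosomes, at 43.7 and 56.2 CPM. Pelo passed the level filter only through FACS CFU-E, so its direction follows from the filter. In the CS pair 3 of 5 were higher late past 1.2-fold (28.8% of all genes) and in the PE pair 0 of 6 (17.6% of all genes). Without the cells with granulocyte or monocyte markers the counts were again 2, 3 and 0, while in the depth window the CS pair had 1 in each direction. For the lists of this paragraph, too, no share of all genes was computed under such other settings. Among mTOR and TOP regulators 7 of 13 were compared. Past 1.2-fold, 2 were higher early and 1 late, where 19.7% and 25.2% of all genes were. Akt1s1 (0.42) and Eif4ebp1 (0.36) were higher and Eif4ebp2 (-0.33) lower in FACS BFU-E. Without the cells with granulocyte or monocyte markers 6 of that list were compared, with 1 higher and 0 lower past 1.2-fold. Of the ribosomal protein chaperones 4 of 6 were compared. Only Bccip was past 1.2-fold, with a log2 ratio of -0.30, so 1 of 4 was higher late, near the 25.2% of all genes. No chaperone was past it without the same marker cells. Of 10 p53 response genes only Bax (-0.24) and Trp53 (0.19) could be compared. Rack1 (0.04) and Fau (0.00), both parts of the small subunit outside the naming rule, differed little in the FACS pair.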

How the data were processed

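The authors deposited 1 natural log table for both libraries, with a row per cell and a column per Ensembl gene ID, and per the file headers a table with each cell's name. With the log undone and 1 taken off, every cell sums to 10000. The submitters' processing notes name Cell Ranger 4.0.0, Scanpy and mm10, and the sources used here give no filters. Whole UMIs were recovered as multiples of the smallest nonzero linear value in a cell: all of 16419767 nonzero values (100%) were whole within 0.001. Symbols were found for 17592 IDs, 16 had none and 10 shared theirs. Barcode endings split the cells into libraries: 1 ending held every cell with a hashed name, and the other was taken as the CITE-seq library by elimination. The libraries shared 0 barcodes. Doublets were not called. Myeloid-marker cells held at least 5 UMIs of the granulocyte and monocyte lists, and globin-rich cells at least 1% globin UMIs.

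UMIs were summed per pool and compared as ratios of CPM with exact conditional binomial intervals (Python 3.11.15, numpy 2.4.6, pandas 2.3.3, scipy 1.17.1). Shares have Clopper-Pearson intervals and levels Poisson intervals. The code was tested on simulated data. The members and lists were chosen with earlier results of these data known. Named members were the 6 highest and 6 lowest FACS ratios, the 4 highest and 4 lowest PE-low to FACS BFU-E ratios, paralog pairs, Diamond-Blackfan genes, stalk genes, Rps27a, Rpsa, Rps6 and those under 50 CPM; of each other list, up to 4 by size of the FACS ratio. Others were named after their values were seen. Gene positions and promoters are from RefSeq GRCm38.p6, the assembly that mm10 denotes. The deposited principal component coordinates were not used.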

Additional observations from a re-analysis of the deposited data

Results flagged for a closer look

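Outside the member rule, 6 copies of ribosomal protein genes carried UMIs above the limit that a count of 0 allows. Over all cells Rpl9-ps6 stood at 89.0 CPM, Rps27rt at 52.6, Rpl10-ps3 at 34.2, Rpl36a-ps1 at 31.7, Rpl9-ps1 at 1.496 and Rpl36-ps4 at 0.345 CPM. Rpl10-ps3 stood above its parent gene in the hashed pools: 74.7 CPM in FACS BFU-E, where Rpl10 stood at 29.8 CPM. Between the libraries the copies moved in different directions. Rpl36a-ps1 stood at 11.0 CPM in FACS BFU-E and 42.8 CPM in CS BFUE, and Rpl10-ps3 at 74.7 and 20.5 CPM.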

How the results depend on the processing

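No direction of a summed share reversed under any alternative. No paired analysis was possible because each library is a single sample and no name has replicates. Values here are log2 ratios of the summed level, then counts of members past 1.2-fold. Shares of all genes past a fold were computed in the main setting only. FACS pair, 0.049 and 3: 0.062 without myeloid-marker cells, 0.098 and 5 scaled by the median of other genes, 5 with no filter, 0.044 in the depth window and 0.042 without mitochondrial genes and Gm42418. PE pair, 0.042 and 0: 0.057 without myeloid-marker cells, 0.046 without globin-rich cells, 0.048 with cells weighted equally, 0.068 and 1 by the median, 3 with no filter, 0.058 and 2 in the window, 0.033 without mitochondrial genes. CS pair, 0.092 and 5: 0.12 without myeloid-marker cells, 0.10 with equal weights, 0.17 and 13 by the median, 9 with no filter, 0.036 and 2 in the window. PE-low against FACS BFU-E, -0.034 and 0: -0.030 with equal weights, -0.057 by the median, -0.012 in the window, and 2 with no filter. PE-high against FACS CFU-E, -0.026 and 0: -0.030 without globin-rich cells, -0.030 with equal weights, and 2 with no filter. CS BFUE against FACS BFU-E, 0.45 with 31 past 1.5-fold: 0.46 without myeloid-marker cells, 0.45 with equal weights, 0.71 and 48 by the median, 0.41 in the window. CS CFUE against FACS CFU-E, 0.40: 0.40 with equal weights, 0.64 by the median, 0.41 in the window, 0.40 without mitochondrial genes. Counts with no filter add genes of a few UMIs; the cause of the other shifts was not tested. The depth window, the scaling without mitochondrial genes and all settings of the library comparisons, of the counts by sign and of the other gene lists were chosen after seeing the data. Of 84 paralog shares under other cell selections, 8 moved beyond their interval, all without myeloid-marker cells; Rpl39l fell to 0 in CS BFUE. With 1 pool per name, intervals cover counting error only, and depth left Rpl3l and Rpl10l without a comparison.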

Other observations

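The 2136 cells of the CITE-seq library named unknown belong to no comparison between pools; the Rpl39l values per library include them. Their ribosomal protein share was 30.4% of 62266906 UMIs, with cells from 6.09% to 43.5%. Among them 146 cells with granulocyte or monocyte markers had a share of 28.2%, 243 globin-rich cells 31.0% and the remaining 1749 cells 30.4%. The cell at 6.09% had 7163 UMIs, and Malat1, Gm42418 and H19 were its most abundant genes.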
